A study of Homo sapiens with 90 samples.

Results

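Imazalil was compared with 2,4-D at a matched concentration of 10 μM in HepaRG cells, an established human liver progenitor line that is differentiated into hepatocyte-like and biliary-like cells. The 6 arrays compared, 3 of imazalil and 3 of 2,4-D, were chosen by the agent and dose given in the sample labels out of 90 array columns in all. Imazalil is an imidazole fungicide, and 2,4-D (2,4-dichlorophenoxyacetic acid) is a chlorophenoxy herbicide. Purchased cells were plated on collagen in multi-well plates, were given an induction medium the day before dosing, and were then exposed for 24 h to imazalil, to fenbuconazole (a triazole fungicide) or to 2,4-D at 9 concentrations from 0.001 to 10 μM. All groups, the DMSO vehicle controls included, held 0.2% DMSO, and the labels give no genetic change for any group. Each group had 3 replicates, described in the study's methods as independent experiments on separate batches of cells, and total RNA of whole wells was hybridised to Affymetrix arrays. The 3 replicates of a group are given throughout in the order of the P code of their labels (1, 2 and 3), and imazalil and 2,4-D arrays were paired by that code.

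Values are log2 levels minus the mean of the 3 DMSO columns normalised with the same chemical, so that 0 is the vehicle level and 1 is a doubling. A gene was called where the adjusted p of the limma fit was below the false discovery rate of 0.05 over 19774 genes. Where a call was lost without a replicate, all arrays with that P code were left out, and the adjusted p without them is given. Fewer cells of a type and less RNA per cell cannot be told apart in such bulk RNA.

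Foreign chemicals reach liver gene expression largely through receptors that act as transcription factors. The aryl hydrocarbon receptor (AHR) is known for inducing CYP1A1 and CYP1A2, and the constitutive androstane receptor (CAR) and the pregnane X receptor (PXR) for inducing CYP2B6 and CYP3A4 together with conjugating enzymes, export pumps and heme synthesis. Azole fungicides act on the lanosterol demethylase of fungi, whose human counterpart is CYP51A1, and chlorophenoxy acids act on plants as mimics of the hormone auxin.

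At 10 μM, 145 genes were higher with imazalil than with 2,4-D, which is 0.733% of the genes tested, and 115 genes (0.582%) were lower. The 3 imazalil values did not overlap the 3 values of 2,4-D in 141 of the 145 and in 103 of the 115, against 2357 genes, or 11.9%, over all genes. Most differences were small: 152 of the 260 called genes differed by less than 0.5 on the log2 scale, and 21 by more than 1, of which 12 were higher and 9 lower with imazalil. Against DMSO, 276 genes were called for imazalil (1.4%; 154 higher and 122 lower), while 0 genes were called for 2,4-D in either direction by the same limma test. At an unadjusted p below 0.05 there were 2363 genes for imazalil and 1430 for 2,4-D. These 2 comparisons share their DMSO arrays. The largest rises were genes of foreign-chemical metabolism, led by CYP1A1, CYP1A2 and CYP2B6, and the largest falls were led by ADH1A, CYP4A22 and INHBE. Leaving out all arrays of P code 1, 2 or 3 left 38, 64 and 46 genes lower, and 67 and 62 genes were higher without P code 1 or 3. Without the first imazalil array alone 91 were higher and 71 lower, and without the first 2,4-D array alone 66 were lower. The split between higher and lower genes depended on the scaling: without the subtraction of DMSO 193 genes were higher and 640 lower (23.17% of calls higher, against 55.77%), and after quantile normalisation of all columns 120 were higher and 147 lower (44.94%).

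**Figure D1:**
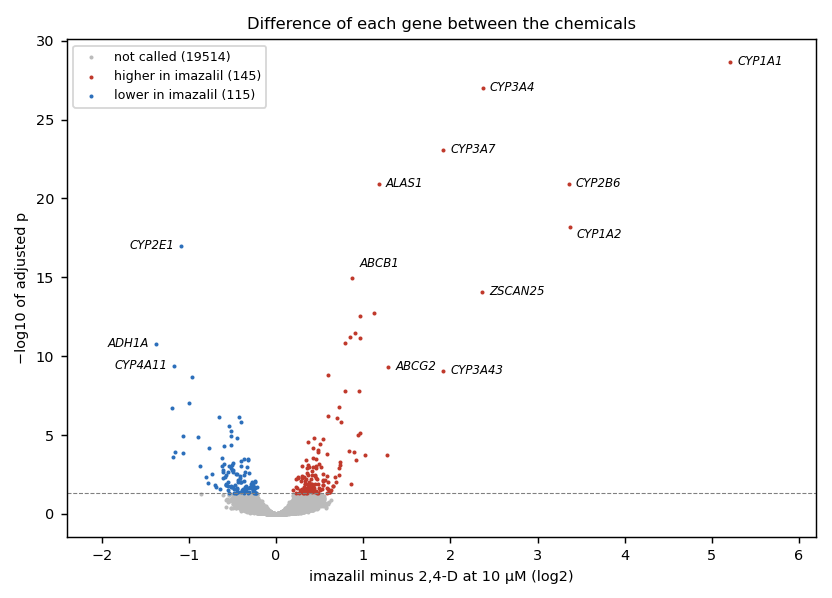
Each point is 1 of 19774 genes, with the difference imazalil minus 2,4-D at 10 μM (log2) on the horizontal axis and the negative log10 of its adjusted p on the vertical axis. Red points are the 145 genes called higher with imazalil, blue points the 115 called lower and grey points the 19514 not called, and the dashed line marks the false discovery rate of 0.05. CYP1A1 lies farthest to the right at 5.21 and ADH1A farthest to the left at -1.38.

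The AHR genes gave the largest single difference and few others. CYP1A1, a P450 that oxidises polycyclic aromatic compounds and is the usual marker of AHR activity, stood at 5.54, 5.91 and 4.77 with imazalil, against 0.25, 0.07 and 0.27 with 2,4-D. The lowest imazalil array was thus far above the highest 2,4-D array, and the difference was 5.21 ± 0.20 (SE, adjusted p = 2.24e-29). Its log2 level was 8.28 with imazalil and 3.06 with 2,4-D, the second close to the medians of the 6 arrays (2.82 to 2.93), so no fold is given. CYP1A2, the caffeine-oxidising P450 encoded next to CYP1A1 on chromosome 15, stood at 3.64, 3.71 and 3.37 with imazalil, against 0.13, 0.46 and 0.02 with 2,4-D. It was 10.3-fold higher (3.37 ± 0.22, adjusted p = 6.31e-19), and its other probe set gave 2.04. ALDH3A1, an aldehyde dehydrogenase inducible through AHR, was the third AHR gene that rose (0.46 ± 0.09, adjusted p = 0.00128), and it was not called without replicate 2 (0.0505) or 3 (0.161).

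The 9 other measured AHR genes of the 12 did not pass the test. CYP1B1, a P450 that AHR induces outside the liver, differed by 0.11 (95% interval -0.11 to 0.32). AHRR, the repressor that AHR itself induces, differed by 0.01 (-0.32 to 0.34), and TIPARP, an ADP-ribosyltransferase that restrains AHR, by 0.07 (-0.09 to 0.23). NQO1, a quinone reductase, differed by -0.13 (-0.41 to 0.14), and AHR itself by -0.10 (-0.42 to 0.21). The median of the 12 AHR genes was 0.12, beside 0.01 over all genes.

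The promoters of the pair are shown because these genes moved together and carry the largest differences, and each covers the 250 bases before the start of the gene in RefSeq (GRCh38.p14). The window of CYP1A1 lies at chr15:74725529-74725778 on the minus strand and that of CYP1A2 at chr15:74748595-74748844 on the plus strand.
CYP1A1: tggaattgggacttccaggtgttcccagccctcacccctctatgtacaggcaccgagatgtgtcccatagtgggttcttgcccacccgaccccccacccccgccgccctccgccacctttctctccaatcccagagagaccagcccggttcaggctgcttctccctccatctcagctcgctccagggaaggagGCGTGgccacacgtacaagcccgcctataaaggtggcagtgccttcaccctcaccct
CYP1A2: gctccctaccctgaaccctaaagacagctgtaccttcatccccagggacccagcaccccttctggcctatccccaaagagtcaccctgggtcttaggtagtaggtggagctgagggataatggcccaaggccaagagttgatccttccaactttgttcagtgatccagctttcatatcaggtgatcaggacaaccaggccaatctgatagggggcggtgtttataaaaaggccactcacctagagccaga
Capitals mark GCGTG, the core that AHR and its partner recognise, searched on both strands. The CYP1A1 window held it 1 time, 57 bases before the start, and the CYP1A2 window held it 0 times. Of 35116 RefSeq promoters, 32.2% hold these letters in a window of that length, so a match is a description of the window only.

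Genes that CAR and PXR are known to induce had the most calls of the gene lists. The lists were written with earlier results of these data known. Of 18 measured CAR and PXR genes, 14 were higher with imazalil, 0 were lower and 4 were not called, and their median difference was 0.77. In a fit of the 6 compared columns alone, 8 of the 18 were called. Over all genes 0.733% were called higher and 0.582% lower, and the median difference was 0.01. These shares stand beside the counts of all lists and clusters compared between imazalil and 2,4-D. CYP2B6, which oxidises bupropion and is the usual CAR marker, stood at 3.57, 2.91 and 3.51 with imazalil, against 0.20, -0.16 and -0.13 with 2,4-D. The groups were far apart (3.36 ± 0.19, 10.3-fold, adjusted p = 1.13e-21), and the second CYP2B6 probe set gave 0.99. CYP3A4, the P450 that clears many drugs and the usual PXR marker, stood at 2.78, 2.55 and 2.75 with imazalil, against 0.26, 0.36 and 0.36 with 2,4-D. Its difference was 2.37 ± 0.10, or 5.17-fold (adjusted p = 9.82e-28), with 2.38, 3.19 and 0.21 at its 3 other probe sets.

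All 5 genes measured in the CYP3A cluster on chromosome 7, counting its neighbour ZSCAN25, were called higher. CYP3A7, the form of fetal liver, stood at 2.44, 2.16 and 2.28 with imazalil, against 0.41, 0.26 and 0.46 with 2,4-D (difference 1.92 ± 0.10), with 0.95 and -0.12 at its other probe sets. CYP3A43, a weakly expressed member, stood at 1.90, 2.10 and 2.63 with imazalil, against -0.22, 0.55 and 0.54 with 2,4-D (1.92 ± 0.21). The arrays of the chemicals did not overlap in either gene, which was a condition of their choice. ZSCAN25, a zinc finger gene that neighbours the cluster, stood at 2.78, 2.79 and 2.79 with imazalil, against 0.15, 0.51 and 0.60 with 2,4-D (2.37 ± 0.19), but its 2 other probe sets gave 0.37 and -0.04 and were not called. CYP3A5 rose least (0.48 ± 0.11, adjusted p = 0.0119). Probe sets of CYP3A4, CYP3A7 and CYP3A43 can bind each other's transcripts, so how the rise divides between them is uncertain. The CYP3A5 call was lost without the P code as a block (adjusted p = 0.102). It was also lost without replicate 1 (difference 0.30, adjusted p of 0.45) or replicate 3 (0.0846).

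In the CYP2A and CYP2B cluster on chromosome 19, 4 of 8 measured genes rose. CYP2B7P, a pseudogene close in sequence to CYP2B6, stood at 1.64, 1.04 and 2.03 with imazalil, against 0.56, 0.30 and 0.04 with 2,4-D (1.27 ± 0.22, adjusted p = 0.00018). CYP2A6, which oxidises nicotine, stood at 1.18, 0.64 and 1.24 with imazalil, against 0.31, -0.25 and 0.48 with 2,4-D (0.84 ± 0.14), and the closely related CYP2A7 differed by 0.58 ± 0.13. CYP2A13 was not called (0.28, 95% interval -0.03 to 0.60). These genes also share sequence, and the calls were lost without replicate 3 for CYP2B7P (0.87, adjusted p = 0.16), without replicate 1 for CYP2A6 (adjusted p = 0.0786), and without replicate 1 or 3 for CYP2A7 (adjusted p = 0.314 and 0.0813).

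**Figure D2:**
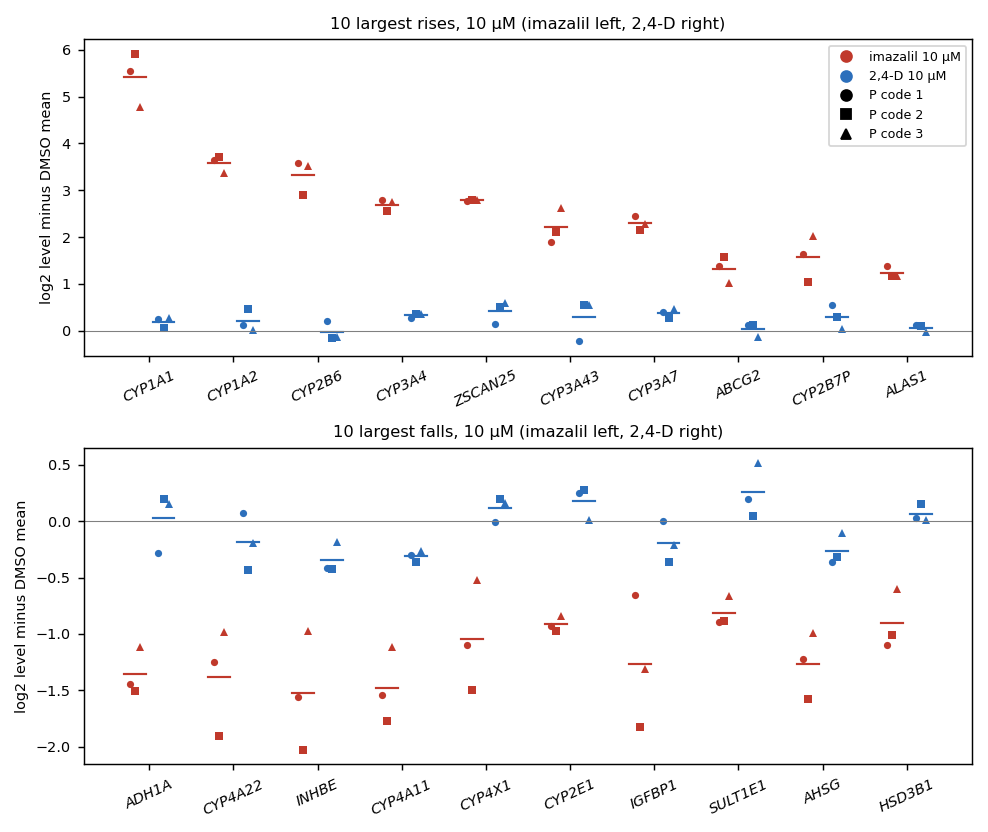
Each point is 1 array: the log2 level minus the DMSO mean (vertical axis) at 10 μM for the 10 largest rises (upper panel) and the 10 largest falls (lower panel) among genes chosen to have arrays that did not overlap, with imazalil in red to the left of 2,4-D in blue, the shape giving the P code and the line the mean of 3. The 3 values of 2,4-D stay between -0.43 (CYP4A22) and 0.60 (ZSCAN25), and CYP1A1 has the highest imazalil values.

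Other CAR and PXR genes that rose included ALAS1, POR, CYP2C8, SULT2A1 and TSKU. ALAS1, the rate-limiting enzyme of heme synthesis, stood at 1.38, 1.17 and 1.18 with imazalil, against 0.13, 0.11 and -0.04 with 2,4-D. It was 2.26-fold higher (1.18 ± 0.07, adjusted p = 1.13e-21). POR, the reductase that passes electrons to microsomal P450 enzymes, rose by 0.78 ± 0.09, and CYP2C8, which oxidises paclitaxel, by 0.75 ± 0.11. SULT2A1, a sulfotransferase of steroids and bile acids, rose by 0.42 ± 0.07 and was not called without replicate 3 (adjusted p = 0.109). TSKU, which encodes a secreted protein, rose by 0.96 ± 0.08. Of the CAR and PXR genes that were not called, UGT1A6, a glucuronosyltransferase, differed by 0.18 (95% interval 0.04 to 0.33), EPHX1, the microsomal epoxide hydrolase, by 0.19 (0.01 to 0.37) and NR1I3, which encodes CAR, by -0.22 (-0.52 to 0.08).

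Of the transporters that export compounds from the cell, ABCG2, ABCB1, ABCC2 and SLC47A1 rose. ABCG2, which exports drugs and porphyrins, stood at 1.39, 1.58 and 1.01 with imazalil, against 0.12, 0.13 and -0.13 with 2,4-D (1.29 ± 0.14, 2.44-fold, adjusted p = 4.76e-10). ABCB1, the P-glycoprotein, stood at 1.10, 1.01 and 1.00 with imazalil, against 0.21, 0.26 and 0.01 with 2,4-D (0.88 ± 0.07, adjusted p = 1.16e-15). ABCC2, which moves conjugates into bile, rose by 0.60 ± 0.07, and SLC47A1, an exporter of organic cations, by 0.51 ± 0.08. These 4 were separate between the chemicals in every array, as were 11.9% of all genes. For ABCG2 this was a condition of its choice, and SLC47A1 was picked after looking at its values. SLC47A1 was not called without replicate 3 (adjusted p = 0.0815). Other exporters measured were not called, among them ABCA1 (-0.35, and -0.52 at a second probe set that was called in the fit of probe sets), ABCG5 (-0.30), ABCB11 (0.12), ABCG8 (-0.07), ABCB4 (0.03), ABCC3 (-0.02) and ABCG1 (-0.02).

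Of 15 measured genes that NRF2 induces against oxidants, 7 were higher (against 0.733% of all genes) and 0 lower (median 0.31). Without the subtraction of DMSO the median was 0.17, and 4 were called without replicate 2 and 0 in the fit of the 6 compared columns alone. SLC7A11, which imports cystine for glutathione synthesis, stood at 0.89, 0.95 and 0.68 with imazalil, against 0.17, 0.31 and -0.14 with 2,4-D (0.73 ± 0.09, adjusted p = 1.6e-07). The others were ABCC2, PGD of the pentose phosphate pathway (0.48 ± 0.08), SRXN1, which restores oxidised peroxiredoxins (0.42 ± 0.08), AKR1B10, an aldo-keto reductase (0.37 ± 0.06), HMOX1, heme oxygenase (0.33 ± 0.09), and TXNRD1, thioredoxin reductase (0.25 ± 0.06). GPX2, a glutathione peroxidase outside the list, stood at 1.10, 1.09 and 0.97 with imazalil, against 0.39, 0.09 and 0.13 with 2,4-D (0.85 ± 0.08), and TKT, transketolase, rose by 0.34 ± 0.06. NQO1, a standard NRF2 target, and GCLC, which makes the glutathione precursor (-0.09, 95% interval -0.22 to 0.04), were not called. The calls of HMOX1 and TXNRD1 were lost without any 1 of the 3 replicates (adjusted p of 0.146 to 0.273 for HMOX1 and 0.142 to 0.174 for TXNRD1), that of HMOX1 also without the block (0.214), that of PGD without replicate 2 (0.054) and as a mean over its probe sets (0.17, adjusted p = 0.419), and that of TKT without replicate 3 (0.191).

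Sterol synthesis genes differed by less. Of 8 measured genes up to squalene, 2 were higher, and of 10 from squalene to cholesterol, 4 were higher, with 0 lower in either list and medians of 0.18 and 0.20. Over all genes 0.733% were called higher, and the median was 0.01. LSS, which closes squalene epoxide into lanosterol, stood at 0.51, 0.48 and 0.37 with imazalil, against 0.12, 0.07 and -0.12 with 2,4-D (0.43 ± 0.07, adjusted p = 1.46e-05). The other called genes were NSDHL (0.40 ± 0.10) and TM7SF2 (0.29 ± 0.08), which act on sterol intermediates, DHCR7, the last reductase before cholesterol (0.30 ± 0.07), ACAT2, which joins acetyl-CoA units (0.41 ± 0.09), and FDPS, which makes farnesyl diphosphate (0.35 ± 0.08). CYP51A1, the lanosterol demethylase, stood at 0.23, 0.27 and 0.13 with imazalil, against 0.16, 0.04 and -0.04 with 2,4-D. These values overlapped, and the gene was not called (0.15 ± 0.07, 95% interval 0.01 to 0.29, adjusted p = 0.423). The second CYP51A1 probe set gave 0.39 ± 0.28 and was not called in the fit of probe sets.

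Among 17 fatty acid synthesis genes, 2 rose: ACSS2, which turns acetate into acetyl-CoA (0.46 ± 0.08), and THRSP, a thyroid hormone responsive gene of lipid synthesis (0.74 ± 0.14). ACSS2 was not called without replicate 2 (adjusted p = 0.0673), nor THRSP without replicate 3 (0.168). Of 13 genes that sense or take up sterols, 0 were called. A fit of the 6 compared columns alone called 0 genes on the lists of sterol and fatty acid synthesis (LSS 0.43, adjusted p = 0.627). Leaving out replicates ended 5 of the 6 sterol calls. NSDHL was not called without replicate 1 or 3 (adjusted p = 0.239 and 0.441), FDPS without replicate 1 or 3 (0.239 and 0.12), and ACAT2, DHCR7 and TM7SF2 without any 1 of the 3 (0.0664 to 0.128 for ACAT2, 0.0711 to 0.163 for DHCR7 and 0.172 to 0.249 for TM7SF2). Without the replicate block DHCR7 (0.0794) and TM7SF2 (0.117) were not called. LSS, with a mean over its probe sets of 0.19 (0.495), was not called when probe sets were averaged.

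Further rises were in genes of varied roles. CD14, a co-receptor for bacterial lipopolysaccharide that hepatocytes also make, stood at 0.92, 0.73 and 0.98 with imazalil, against -0.04, -0.28 and -0.41 with 2,4-D (1.12 ± 0.10, adjusted p = 1.75e-13). KLB, the co-receptor for endocrine fibroblast growth factors, stood at 1.06, 1.02 and 1.06 with imazalil, against 0.19, 0.18 and -0.12 with 2,4-D (0.96 ± 0.09). DIO1, a deiodinase of thyroid hormone, stood at 1.37, 1.00 and 1.23 with imazalil, against 0.24, 0.41 and 0.10 with 2,4-D (0.95 ± 0.11). The arrays of the chemicals were apart in each of these genes, as in 11.9% of all genes. KLB and DIO1 were picked after looking at their values. ETNPPL, which breaks down phosphoethanolamine, stood at 0.82, 0.76 and 0.87 with imazalil, against -0.04, 0.01 and -0.24 with 2,4-D (0.91 ± 0.08). SPP1, which encodes osteopontin, rose by 0.80 ± 0.08. AKR1D1, a reductase of bile acid synthesis, rose by 0.86 ± 0.20 and was not called without replicate 1 or 3 (adjusted p = 0.314 and 0.343). GDF15, a secreted stress marker and the 1 call among 11 p53 targets, rose by 0.46 ± 0.09, although its arrays overlapped (1.44, 0.26 and -0.03 with imazalil, against 1.16, -0.26 and -0.61 with 2,4-D) and the call was lost without the block (0.927) and without replicate 2 or 3 (0.0714 and 0.129).

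The largest fall was in alcohol metabolism. ADH1A, an alcohol dehydrogenase that also oxidises retinol, stood at -1.44, -1.50 and -1.12 with imazalil, against -0.28, 0.19 and 0.16 with 2,4-D. It was 2.60-fold lower with imazalil (-1.38 ± 0.13, adjusted p = 1.77e-11). Of 8 measured genes in the ADH cluster on chromosome 4, ADH4 (-0.61 ± 0.12) and ADH6 (-0.41 ± 0.10) fell as well, while ADH1B (-0.19 ± 0.08), ADH1C (0.12 ± 0.13) and ADH5 (0.08 ± 0.06) were among the 5 not called. CYP2E1, the ethanol-oxidising P450, stood at -0.93, -0.97 and -0.84 with imazalil, against 0.25, 0.27 and 0.01 with 2,4-D (-1.09 ± 0.07, 2.13-fold lower, adjusted p = 1.01e-17), and 3 of its 4 probe sets were called. With CYP4A11 and CYP4A22 it made the 3 falls, beside 0 rises, on a list of 16 P450 genes that did not hold every P450 measured. ADH4 was not called without replicate 1 or 2 (adjusted p = 0.0687 and 0.101), nor ADH6 without any 1 of the 3 (0.0783 to 0.177) or without the block (0.0675).

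In the CYP4 cluster on chromosome 1, 5 of 6 measured genes were called lower, 1 of them, CYP4Z1, at a level near the bottom of the scale. CYP4A11, a fatty acid hydroxylase under PPARA control, stood at -1.54, -1.77 and -1.11 with imazalil, against -0.30, -0.36 and -0.26 with 2,4-D (-1.17 ± 0.12, adjusted p = 3.9e-10), and its other probe sets gave -0.58 and -0.05. Its near copy CYP4A22 stood at -1.25, -1.90 and -0.99 with imazalil, against 0.08, -0.43 and -0.19 with 2,4-D (-1.20 ± 0.16), and a probe set of one can bind the transcript of the other. CYP4X1, a related hydroxylase, stood at -1.10, -1.50 and -0.52 with imazalil, against -0.01, 0.19 and 0.16 with 2,4-D (-1.16 ± 0.20). CYP4B1 differed by -0.39 ± 0.10. CYP4Z1 differed by -0.57 ± 0.12 at log2 levels of 2.33 with imazalil and 2.74 with 2,4-D, below the medians of the 6 arrays (2.82 to 2.93), and the filter on low values left it out. Without replicate 2, CYP4X1 stood at -0.87 and just missed the threshold (adjusted p = 0.0504), CYP4Z1 was not called without replicate 2 or 3 (0.0539 and 0.105), and CYP4B1 was not called without the block (0.071) or without replicate 1 or 2 (0.316 and 0.317).

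Outside the CYP4A genes, most PPARA targets and fatty acid oxidation genes were not called. Of 18 measured, 3 fell (CYP4A11, CYP4A22 and VNN1, a pantetheinase, at -0.54 ± 0.11), 0 rose, and the median was -0.03. VNN1 was not called without replicate 1 or 2 (adjusted p = 0.178 and 0.15).

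**Figure D3:**
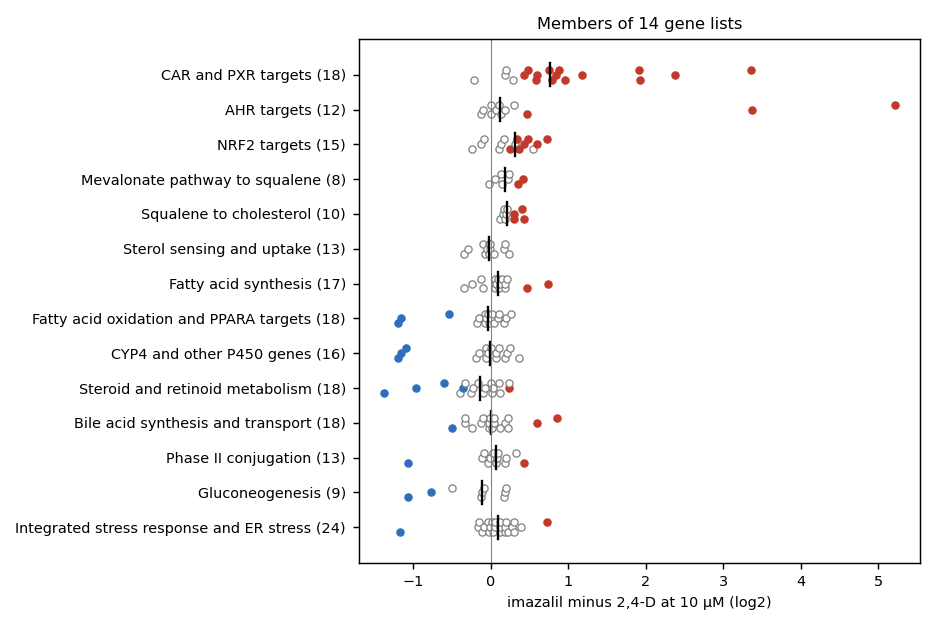
Each circle is 1 measured gene of 14 gene lists (rows, with the number measured), placed at its difference imazalil minus 2,4-D at 10 μM (log2). Filled red circles were called higher with imazalil, filled blue circles called lower and open circles not called, and the black bar is the median of the list. CAR and PXR targets have 14 of 18 filled red with a median of 0.77, while only CYP1A1, CYP1A2 and ALDH3A1 are filled among the 12 AHR targets.

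Steroid and hormone enzymes fell in part. SULT1E1, the estrogen sulfotransferase, stood at -0.89, -0.88 and -0.67 with imazalil, against 0.20, 0.05 and 0.52 with 2,4-D (-1.07 ± 0.16, adjusted p = 1.11e-05). HSD3B1, a dehydrogenase of steroid hormone synthesis, stood at -1.10, -1.01 and -0.60 with imazalil, against 0.03, 0.15 and 0.01 with 2,4-D (-0.96 ± 0.11). Both were lower in every imazalil array, which was a condition of their choice. SULT1E1 and SULT2A1 were the 2 calls among 13 phase II genes. Of 18 steroid and retinoid genes, 4 fell (ADH1A, HSD3B1, ADH4 and the retinol dehydrogenase RDH16 at -0.37 ± 0.08) and 1 rose (AKR1C2, an aldo-keto reductase of steroids, at 0.23 ± 0.05), with a median of -0.14. RDH16 was not called without replicate 1 or 3 (adjusted p = 0.242 and 0.108), nor AKR1C2 without any 1 of the 3 (0.0678 to 0.338) or without the block (0.0886).

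INHBE, IGFBP1, AHSG and IGF1, which encode secreted proteins, fell, while 0 of 11 acute phase genes were called and ALB, albumin, differed by 0.00. INHBE, the activin E subunit, stood at -1.56, -2.03 and -0.97 with imazalil, against -0.42, -0.42 and -0.18 with 2,4-D (-1.18 ± 0.21, adjusted p = 0.000254). It was among the genes chosen to have arrays that did not overlap, and without the replicate block it was not called (adjusted p = 0.0583). IGFBP1, an insulin-like growth factor binding protein repressed by insulin, stood at -0.65, -1.82 and -1.31 with imazalil, against 0.00, -0.36 and -0.21 with 2,4-D (-1.07 ± 0.19), and it was not called without replicate 3 (0.0527) or at its other, dim probe set (-0.05). AHSG, fetuin A, stood at -1.22, -1.58 and -0.995 with imazalil, against -0.36, -0.32 and -0.11 with 2,4-D (-1.002 ± 0.13, adjusted p = 9.1e-08). IGF1, the growth hormone dependent growth factor, fell by 0.87 with an SE of 0.17, and GHR, the growth hormone receptor, by 0.30 with an SE of 0.08. IGF1 was not called without replicate 3 (0.0848), nor GHR without any 1 of the 3 (0.0896 to 0.406).

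On a gluconeogenesis list of 9 measured genes, G6PC1 and IGFBP1 fell and 0 rose (median -0.11). IGFBP1 encodes a binding protein and not an enzyme of that pathway. Of 18 genes of glycolysis and hypoxia 0 were called (median 0.04). G6PC1, which releases glucose from its phosphate, stood at -0.70, -1.63 and -1.08 with imazalil, against -0.07, -0.65 and -0.39 with 2,4-D (-0.77 ± 0.13, adjusted p = 6.27e-05). SLC2A2, the glucose transporter of hepatocytes, fell to -0.48, -0.70 and -0.40 with imazalil, against -0.18, 0.09 and 0.09 with 2,4-D (-0.52 ± 0.08), and TXNIP, a glucose-responsive regulator, differed by -0.62 ± 0.11. The 2,4-D arrays of G6PC1 were themselves below the vehicle level. PROX1 (-0.60 ± 0.10) and FOXA3 (-0.57 ± 0.14), transcription factors of the liver, fell too, FOXA3 not being called without the block (adjusted p = 0.0996) or without replicate 1 or 2 (0.303 and 0.109) or the third 2,4-D array alone (0.0541). TXNIP was not called without replicate 2 (0.0539), and PROX1 gave -0.33 (0.134) as a mean over its probe sets.

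Complement and coagulation genes had 1 fall among 15, F5, coagulation factor V (-0.36 ± 0.09), which was lost without replicate 1 or 3 (adjusted p = 0.178 and 0.47). C8A (-0.45 ± 0.07) and C8B (-0.61 ± 0.13), subunits of the terminal complement complex encoded side by side on chromosome 1, fell and were not on that list, and C8B was not called without replicate 1 or 3 (0.12 and 0.0909). CYP8B1, which sets the cholic acid share of bile acids, was the 1 fall among 18 bile acid genes (-0.50 ± 0.13), was lost without the block (0.103) and without any 1 of the 3 replicates (0.0645 to 0.307), and had overlapping arrays. CLEC3B, which encodes tetranectin (-0.90 ± 0.14), and H19, an imprinted noncoding RNA (-0.81 ± 0.18), fell, but not without the block (0.065 and 0.191), and H19 also not without replicate 1 or 3 (0.124 and 0.0612) or the second imazalil array alone (0.0596).

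3 further falls, those of DUSP6, CCL20 and SGK1, rested on the pairing. DUSP6, a phosphatase of ERK kinases, stood at 0.70, -1.45 and -1.0004 with imazalil, against 0.92, -0.27 and -0.06 with 2,4-D. Both chemicals had 1 high array, that with P code 1, so the arrays overlapped and the call (-0.78 ± 0.18, adjusted p = 0.0103) was lost without the block (0.854). The chemokine CCL20 (-0.41 ± 0.09) and the kinase SGK1 (-0.29 ± 0.07) also overlapped and were not called without the block (0.945 and 0.75). DUSP6 was also lost without replicate 2 or 3 (0.203 and 0.263), CCL20 without 1 or 3 (0.182 and 0.0682) and SGK1 without any 1 of the 3 (0.0539 to 0.527). CCL20 was the 1 call among 11 genes of NF-kB and cytokines, and SGK1 the 1 among 8 glucocorticoid receptor targets.

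Stress genes other than those of NRF2 mostly did not differ beyond the threshold. Of 24 genes of the integrated and endoplasmic reticulum stress responses, SLC7A11 rose and INHBE fell. TRIB3, a pseudokinase induced by ATF4, stood at 0.40, 0.23 and 0.29 with imazalil, against 0.10, 0.33 and 0.14 with 2,4-D, values that overlapped (0.12 ± 0.08, 95% interval -0.05 to 0.28, adjusted p = 0.676). The second TRIB3 probe set gave 0.37 ± 0.12 and was not called in the fit of probe sets. Lists of heat shock, cell cycle, glycolysis, oxidative phosphorylation, urea cycle, acute phase, interferon, immediate early, metallothionein and ribosomal protein genes had 0 calls in either direction by limma. With the sterol sensing genes and endothelial markers these made 12 lists of 141 genes, of which 24 had an unadjusted p below 0.05. Under other settings some had calls: without the subtraction of DMSO 4 immediate early, 2 interferon, 1 acute phase, 1 urea cycle and 1 sterol sensing gene, and with the mean of probe sets 2 immediate early, 1 metallothionein and 1 urea cycle gene. The urea cycle list had 1 or 2 calls in 8 settings, and the metallothioneins had 2 without the second 2,4-D array. All 17 measured oxidative phosphorylation genes had positive differences with a median of 0.11 and none past the threshold. Over all genes, 10773 of 19774 differences were positive, with a median of 0.01.

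The cells carried hepatocyte markers at high levels, with all 11 measured above a log2 level of 6 and ALB at 13.19 with imazalil and 13.17 with 2,4-D. Of these 11, AHSG was the 1 that fell. The mean of the list lay between -0.33 and -0.0926 in imazalil arrays and between -0.0603 and 0.0297 in 2,4-D arrays. Biliary markers averaged 0.135 to 0.153 with imazalil and 0.021 to 0.0966 with 2,4-D, where SPP1 was the 1 of 9 that rose, and KRT19 was not called (-0.19). Only 2 of these 9 were above a level of 6. KRT7, EPCAM, CFTR, CLDN4, AQP1 and PROM1 were near the bottom of the scale (2.19 to 2.99 with imazalil). Mesenchyme markers averaged -0.185 to -0.0515 with imazalil and -0.0725 to -0.0181 with 2,4-D, COL3A1, a fibrillar collagen, being the 1 of 10 that fell (-0.60 ± 0.11, not called without replicate 3, adjusted p = 0.12). Immune markers averaged 0.0242 to 0.149 with imazalil and -0.12 to 0.0311 with 2,4-D. CD14 alone of those 9 was above a level of 6, and the leukocyte markers PTPRC (2.32 with imazalil, 2.44 with 2,4-D) and CD68 (2.56 with imazalil, 2.70 with 2,4-D) were at the bottom of the scale. Of 9 endothelial markers, 0 were called or above a level of 6. The part of cell composition in the falls of hepatocyte genes was not tested.

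At 3 and 1 μM fewer genes were called than at 10 μM. At 1 μM 3 genes were called (0.0152%): CYP2B6 (1.54), CYP3A4 (0.72) and CYP3A7 (0.48). At 3 μM 38 genes were called (0.192%), 30 higher and 8 lower with imazalil, and 20, 67 and 14 without replicate 1, 2 or 3. Of those 38 genes, 26 were also among the 260 called at 10 μM, and 34 kept their sign. Over all genes 0.733% were called higher and 0.582% lower at 10 μM. The treated arrays differed, but both differences subtract the same DMSO means and share an estimate of the spread. CYP2B6 had reached 3.33 ± 0.28 (SD, n = 3) with imazalil at 3 μM and stood at 3.33 ± 0.37 at 10 μM, against -0.05 ± 0.09 and -0.03 ± 0.20 with 2,4-D. CYP3A4 had reached 1.97 ± 0.11 at 3 μM and 2.70 ± 0.13 at 10 μM with imazalil, against -0.05 ± 0.09 and 0.33 ± 0.05 with 2,4-D.

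CYP1A1 and CYP1A2 gained between 3 and 10 μM. CYP1A1 stood at 0.38 ± 0.17 at 1 μM, 1.73 ± 0.67 at 3 μM and 5.41 ± 0.58 at 10 μM with imazalil (SD, n = 3), against -0.06 ± 0.04, 0.10 ± 0.35 and 0.20 ± 0.11 with 2,4-D. In the direct test of the difference at 10 μM against that at 3 μM, 7 genes changed (0.0354%), against 3, 101 and 4 without replicate 1, 2 or 3. CYP1A1 gained 3.58 ± 0.28 (SE, adjusted p = 4.81e-14), CYP1A2 gained 2.41 ± 0.30 (5.9e-07) and ALAS1 gained 0.88 ± 0.09 (2.7e-09), while ETNPPL (0.72 ± 0.12), CD14 (0.69 ± 0.14) and SPP1 (0.56 ± 0.11) gained less and CYP2E1 moved further down (-0.79 ± 0.11, 2.08e-06). CYP2B6 did not pass this test (-0.02). CYP2A6 (1.21 at 3 μM and 0.84 at 10 μM), CYP2A7 (1.06 and 0.58) and CYP2B7P (1.36 and 1.27) had the larger differences at 3 μM, which did not pass the test either.

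**Figure D4:**
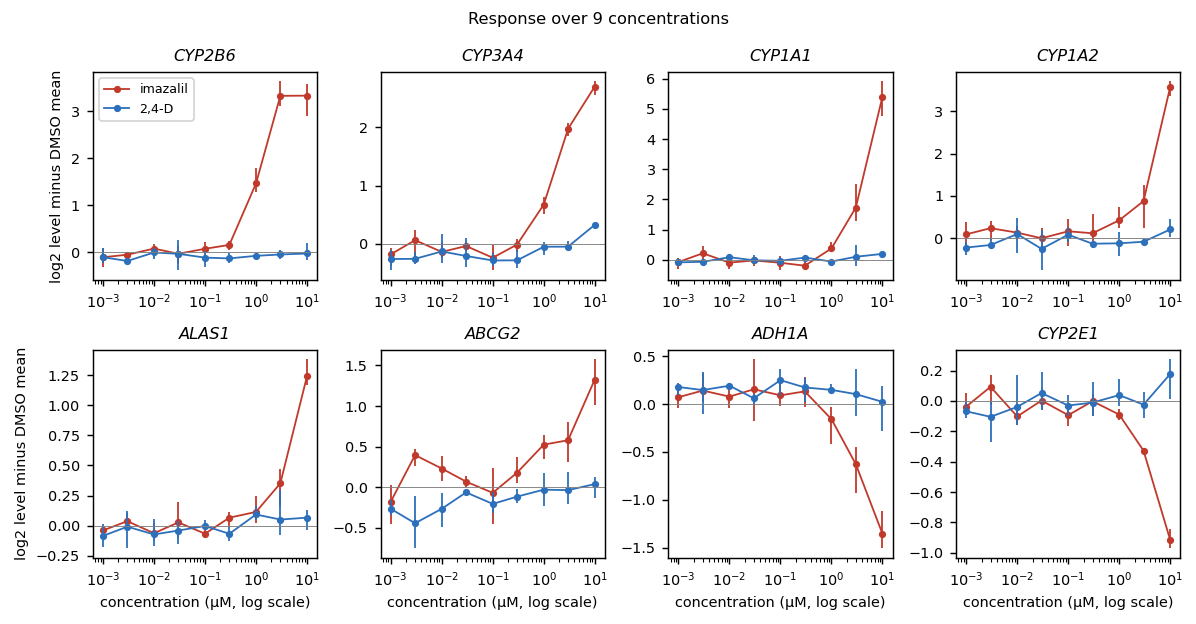
Each panel gives 1 gene over 9 concentrations (horizontal log axis, μM), with the mean log2 level minus the DMSO mean of 3 imazalil arrays in red and of 3 2,4-D arrays in blue on the vertical axis, and bars from the lowest to the highest array. Imazalil leaves the level of 2,4-D at 1 μM in CYP2B6 and CYP3A4 and rises most between 3 and 10 μM in CYP1A1 (1.73 and 5.41), while ADH1A and CYP2E1 turn down.

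Below 1 μM few genes were called. At 0.001, 0.01, 0.03 and 0.3 μM 0 genes passed limma's adjusted threshold, with 1130, 654, 2027 and 1158 genes at an unadjusted p below 0.05. At 0.1 μM 2 genes were called (0.0101%), GTF2IRD1 (0.46) and YJU2B (0.69), neither of them at 10 μM. At 0.003 μM 6 genes were called (0.0303%): ABCG2 was higher (0.84) and COXFA4L3 (-1.48), SLC51A (-0.95), NDRG1 (-0.73), IGFBP3 (-0.72) and OLFML3 (-0.36) were lower with imazalil. ABCG2 and OLFML3 (-0.26) of these were also called at 10 μM. In one batch, the labels of the 2,4-D samples at 0.001 and 0.003 μM give a single identical code. ABCG2 stood at 0.40 ± 0.12 with imazalil and at -0.44 ± 0.32 with 2,4-D at 0.003 μM (SD, n = 3), and at 1 μM its difference of 0.55 was not called.

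Fenbuconazole, the other azole, gave a further comparison at 10 μM with the same imazalil arrays. Against it, 145 genes were called for imazalil (0.733%), 65 higher and 80 lower. Without replicate 1, 2 or 3, 55, 62 and 80 genes were called. The differences from fenbuconazole and from 2,4-D contain the same 3 imazalil arrays, so they are given side by side for single genes only. CYP1A1 stood at 2.11, 3.07 and 1.88 with fenbuconazole, so that imazalil was 3.06 ± 0.20 above it (adjusted p = 1.06e-17), and CYP1A2 was 2.37 ± 0.22 and CYP2B6 1.55 ± 0.19 higher with imazalil. CYP3A4, at 2.37, 2.07 and 2.25 with fenbuconazole, was 0.47 ± 0.10 higher with imazalil. ALAS1 (0.85), ABCG2 (0.95), GPX2 (0.73) and ETNPPL (0.85) were likewise higher with imazalil than with fenbuconazole.

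Several genes separated the azoles in the other direction. Of the 8 genes up to squalene 6 were lower with imazalil than with fenbuconazole, and of the 10 from squalene to cholesterol 9, with 0 higher. Over all 19774 genes, 80 were lower and 65 higher in that comparison. CYP51A1 stood at 0.23, 0.27 and 0.13 with imazalil, against 0.89, 0.92 and 0.66 with fenbuconazole (-0.61 ± 0.07, adjusted p = 5.21e-09). Its arrays did not overlap between the azoles. LSS (-0.64), DHCR7 (-0.61), FDPS (-0.59) and ACSS2 (-0.75) were lower to a similar extent. TRIB3 stood at 0.40, 0.23 and 0.29 with imazalil, against 1.14, 1.07 and 1.11 with fenbuconazole (-0.80). KLB differed by -0.11 between the azoles (95% interval -0.30 to 0.07), DIO1 by 0.16 (-0.07 to 0.38), SLC7A11 by -0.01 (-0.20 to 0.18) and INHBE by 0.08 (-0.34 to 0.51), and these were not called. With p-values adjusted over all 3 pairs of chemicals at 10 μM together, 134 genes were higher and 103 lower with imazalil than with 2,4-D.

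**Figure D5:**
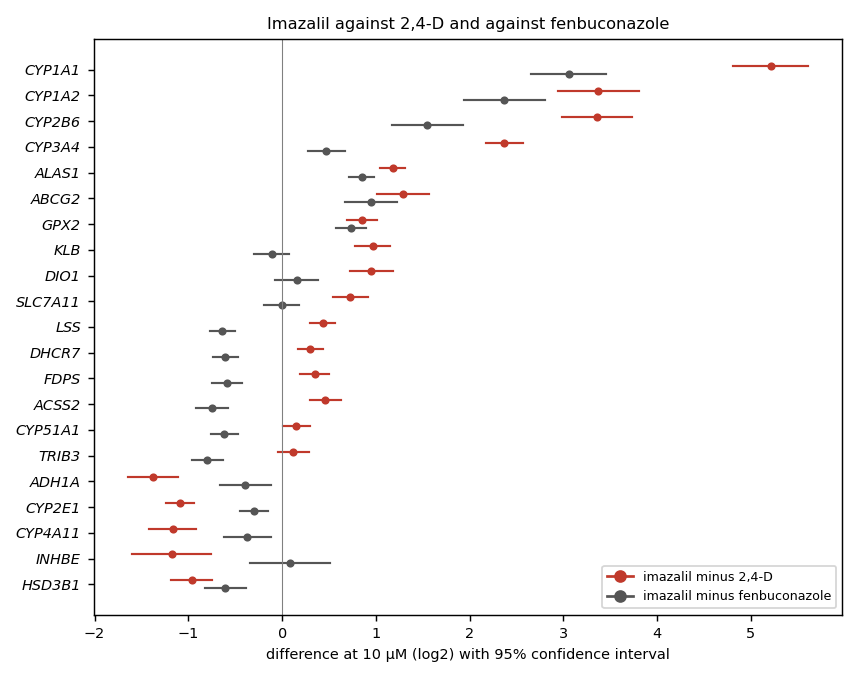
Points give the difference at 10 μM (log2, horizontal axis) for 21 genes (rows), with imazalil minus 2,4-D in red and imazalil minus fenbuconazole in dark grey, and bars are 95% confidence intervals of the limma fit without adjustment for the number of genes. CYP1A1 lies to the right of 0 in both (5.21 and 3.06), LSS, DHCR7, FDPS and ACSS2 lie to the right against 2,4-D and to the left against fenbuconazole, and the intervals of KLB, DIO1, SLC7A11 and INHBE against fenbuconazole hold 0.

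The 6 arrays were alike in their overall signal, with medians between 2.82 and 2.93 on the log2 scale and pairwise correlations over genes between 0.990 and 0.995. The DMSO means of the imazalil and 2,4-D sets, made from the same 3 arrays normalised separately, differed by an SD of 0.11 over genes and by at most 0.74. The number of arrays limits the precision of every value here.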

How the data were processed

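Total RNA of HepaRG wells was labelled and hybridised to Affymetrix arrays. The authors deposited log2 values per probe set, which their processing notes credit to RMA (robust multi-array averaging, which corrects background, quantile-normalises and summarises probes) and Partek, in versions not given in the sources used here. Each chemical was normalised in a set of its own with 30 columns, 27 treated and 3 DMSO. The DMSO columns of the 3 sets come from the same 3 arrays, so only differences from the DMSO mean of the same set were compared.

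Per probe set, the mean of the 3 DMSO columns was subtracted. Of 54715 probe sets, 40920 had 1 gene symbol and 864 several, in the platform annotation given, and 40864 matched RefSeq (GRCh38.p14) by gene identifier, which changed 0 symbols. Where a gene had several probe sets with its symbol alone, the one with the highest mean over the columns stood for it, which left 19774 genes. limma 3.58.1 (R 4.3.3, data.table version 1.17.8) was fitted to the 81 treated columns with 27 group means and the P code as a block (52 residual degrees of freedom), followed by eBayes, contrasts and Benjamini-Hochberg adjustment at a false discovery rate of 0.05 over all genes. All adjusted p-values are from limma and two-sided. Comparisons with DMSO were fitted within the 30 columns of a set. Because both chemicals are set against the same DMSO arrays, the spread of DMSO cancels in their difference.

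Samples with the same P code deviated together over the 81 columns (mean correlation 0.113, against -0.0565 for different codes), and 73 of 81 columns correlated best with their own code. Between imazalil and 2,4-D at 10 μM the correlations were -0.028, -0.229 and 0.0214 for codes 1, 2 and 3. The labels do not explain the code, and the methods describe the replicates as separate batches. The pairing follows the code because the comparison was defined that way.

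Named genes were the 10 largest rises and 10 largest falls with arrays that did not overlap, up to 4 members of each of 33 gene lists with the smallest adjusted p, and CYP1A1, CYP1A2, CYP2B6, CYP3A4, CYP51A1, TRIB3 and INHBE. Other genes, among them GPX2, TKT, KLB, DIO1, ETNPPL, SLC47A1, IGF1, GHR, TXNIP, SLC2A2, DUSP6, H19, CLEC3B, C8A, C8B, PROX1, FOXA3 and the further members of the clusters and lists, were picked after looking at their values. The genes, lists and comparisons were chosen with earlier results of these data known. Lists were described by counts and medians, with no set test. Motifs were searched in RefSeq promoters with Python 3.11.15, and figures were drawn with matplotlib 3.10.9. The fit of the treated columns with the P code as a block was first tested on simulated data, for the differences of genes at 10 μM only. Alternatives were no block, fits of fewer columns, no DMSO subtraction, the DMSO column of the same P code, quantile normalisation, a filter on low values, the mean over probe sets, an intensity trend and leaving out replicates. Arrays give no counting depth.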

Additional observations from a re-analysis of the deposited data

Results flagged for a closer look

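For 7 genes the difference between imazalil and 2,4-D was itself different at 10 and 3 μM, by the limma contrast of both differences with adjustment over all genes. CYP1A1 differed by 5.21 at 10 μM and by 1.63 at 3 μM, a gain of 3.58 ± 0.28 (SE, adjusted p = 4.81e-14). CYP1A2 gained 2.41 ± 0.30 (adjusted p = 5.9e-07), from a difference of 3.37 at 10 μM and 0.96 at 3 μM. ALAS1 gained 0.88 ± 0.09 (adjusted p = 2.7e-09), ETNPPL 0.72 ± 0.12 (0.000515), CD14 0.69 ± 0.14 (0.0134) and SPP1 0.56 ± 0.11 (0.0101). CYP2E1 differed by -1.09 at 10 μM and by -0.30 at 3 μM, a further change of -0.79 ± 0.11 (2.08e-06). The number of such genes varied strongly with the replicates, between 3 without replicate 1 and 101 without replicate 2.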

How the results depend on the processing

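Of 78 called genes followed through 19 other settings, 20, with CYP1A1, CYP1A2, CYP2B6 and CYP3A4 among them, passed the threshold in each setting, and 0 changed direction in any. Without the replicate block 62 of the 78 stayed past the threshold, genes lower fell to 71 (from 115), probe sets lower to 77 (from 143), calls at 3 μM to 15 (from 38) and calls summed over the 7 concentrations below 3 μM to 5 (from 11). A fit of the 6 columns alone called 18 genes higher and 8 lower (probe sets 18 and 7). In it 23 of the 78 genes stayed past the threshold. IGFBP1 (adjusted p = 0.0597), HSD3B1 (0.0597), CYP4X1 (0.0696) and CYP2B7P (0.103) were among those lost. Without the subtraction of DMSO 640 genes were lower, 314 probe sets were higher and 1150 lower (from 179 and 143), 606 genes were called at 3 μM, 1921 calls were made over the lower concentrations and 378 genes differed from fenbuconazole, a setting that keeps the separate normalisation of the sets in the difference. The mean of probe sets gave 24 calls at 3 μM and 14 genes for the difference at 10 μM against that at 3 μM. With replicates left out, genes higher ranged from 62 to 181 and lower from 38 to 112, probe sets higher from 69 to 199 and lower from 54 to 148, calls at 3 μM from 14 to 67, calls over the lower concentrations from 2 to 15, genes whose difference changed between 3 and 10 μM from 3 to 101, and calls against fenbuconazole from 55 to 80 (from 145). The causes of these changes were not tested. The median over all genes was 0.015 in the fit reported, -0.056 without the subtraction of DMSO and 0.0015 after quantile normalisation. The number of arrays, 3 in each group, limits what small differences can be told from 0.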
